A study of Homo sapiens with 6 samples.

Results

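The genes described here encode the machinery of autophagy and of organelle removal in red cell precursors. They were chosen by name, as a list of 43 symbols: mitophagy receptors, the transcription factors of the autophagy and lysosome programme, the core autophagy proteins from initiation to cargo binding, 2 erythroid clearance enzymes and 2 lysosomal membrane proteins. All 43 are among the 62754 gene rows of the deposited tables. The RNA came from HUDEP-2, a human red cell precursor line immortalised from cord blood that expresses chiefly adult globin, and polyadenylated transcripts were sequenced. One group (n = 3 libraries) carried a lentiviral shRNA against MEN1, named MEN1sh2, and the other (n = 3) a control shRNA without a target. MEN1 encodes menin, a subunit of the MLL1 histone methyltransferase complex, and the series asks what that complex does in keeping fetal hemoglobin repressed.

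Both groups were grown in a serum-free medium with erythropoietin (3 units per ml), stem cell factor (50 ng per ml), dexamethasone (1e-06 M) and doxycycline (1 µg per ml), conditions that keep the line expanding. Puromycin (2 µg per ml) was present for 48 h from 24 h after infection, and RNA was taken at 72 h. The design has 1 cell line and 1 MEN1 hairpin, so effects of menin loss and effects on other targets of the hairpin cannot be told apart. The titles call the replicates biological without saying whether transductions were separate. The p-values therefore set each difference against the spread between these libraries, which may not hold variation between transductions.

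Autophagy encloses cytoplasm or organelles in a double membrane, the autophagosome, which then fuses with a lysosome. The ULK1 kinase complex starts the process, a lipid kinase complex marks the membrane, and ubiquitin-like conjugation attaches proteins of the ATG8 family (LC3 and GABARAP), to which cargo receptors bind. Maturing red cells use this route to remove their mitochondria, with BNIP3L as the main receptor, and they also lose their nucleus, ribosomes and other organelles.

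Depth in aligned bases, inferred from the ratio of coverage to FPKM in the tables, was lowest in MEN1 shRNA replicate 3 and highest in control replicate 2, and 13865 to 14361 genes per library had at least 1 TPM. TPM is a transcript level scaled to transcript length and library total, so levels of different genes can be compared. MEN1 itself read 6.29, 6.44 and 6.88 TPM in the knockdown libraries against 41.2, 39.6 and 37.1 TPM in controls (log2 fold change -2.42, SE 0.0803, adjusted p 8.5e-06, limma). All 10 erythroid markers listed were present in both groups, and 8 were higher and 0 lower with the MEN1 shRNA, with a summed level of 97740 to 109900 TPM against 56310 to 62400 TPM in the controls. Of 6 mast cell and basophil markers, TPSAB1 and TPSB2 carried most of a sum of 725 to 885 TPM after knockdown and 1037 to 1307 TPM in the controls, while CPA3 and HDC stayed under 1 TPM and CLC was listed at 0. The summed markers of megakaryocytes (16.9 to 21.4 against 31.9 to 36.8 TPM, with PF4 and PPBP listed at 0), of neutrophils and monocytes (0.525 to 1.52 against 3.74 to 5.30 TPM) and of lymphocytes (3.97 to 5.83 against 1.16 to 1.28 TPM) were low. The part of these shifts in the results below was not tested. In bulk RNA, a change in the share of cells of one stage and a change of RNA per cell cannot be told apart.

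Of the 43 genes, 42 passed the filter of 1 TPM in at least 3 libraries, and all 42 had at least 1 TPM in all 6 libraries. ALOX15 did not pass. With limma and a threshold of 0.05 on the p-value adjusted over all 14294 genes tested, 26 of the 42 changed (61.9%), against 53.6% of all genes. By direction, 20 rose (47.6% of those tested, against 22.1% of all genes) and 6 fell (14.3% against 31.5%). The all-gene balance moved with the scaling: rises were 41.2% of all calls here, 49.5% with median-of-ratios scaling and 49.1% with quantile normalization, where 22 and 25 members rose and 6 fell under each. The median log2 fold change was 0.18 for the 42 genes and -0.07 for all genes. On the log2(TPM + 1) scale, at least a 2-fold change was reached by 4 of them, OPTN, ATG4A, ULK1 and ATG14, all upward. Over all genes, 11.9% passed that mark. In the ratio of mean TPM, ULK2 (2.04) and TRIM58 (0.497, a fall) passed 2-fold too. The groups did not overlap in 30 of the 42 genes, and in 61.8% of all genes. Log2 fold changes are on the log2(TPM + 1) scale throughout, which understates changes of low genes.

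**Figure D1:**
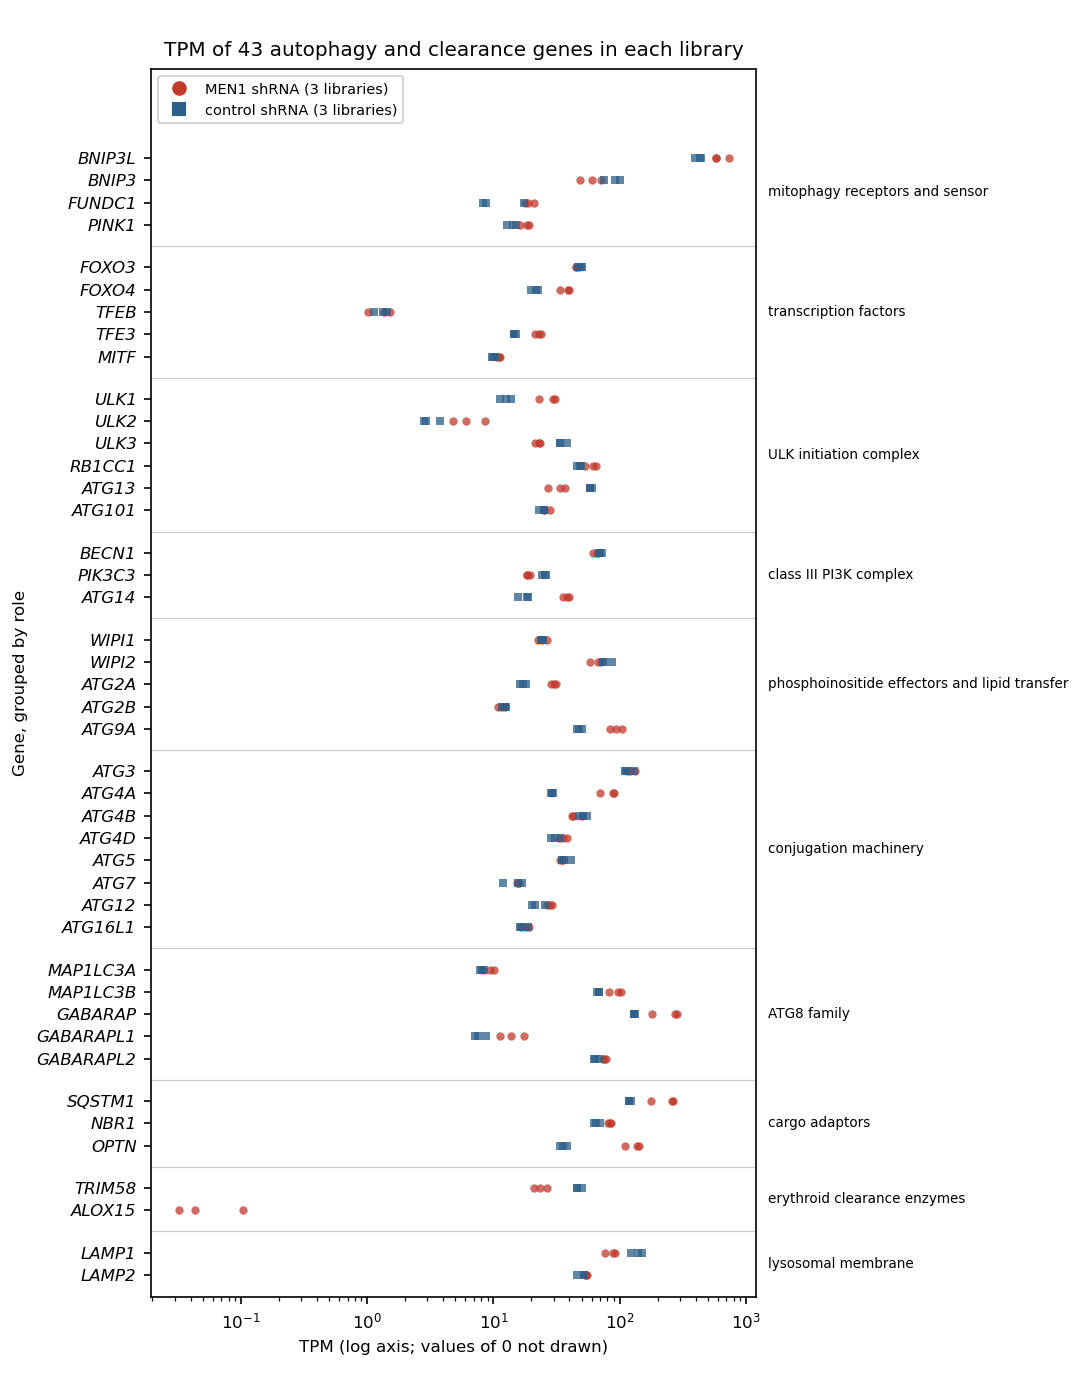
TPM of each of the 43 genes on a log axis, ordered by role, with 1 point per library (circles, 3 MEN1 shRNA libraries; squares, 3 control libraries; values of 0 not drawn). BNIP3L lies above all other members in every library, and OPTN, ATG4A, ULK1 and ATG14 show the widest upward gaps between groups.

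All 3 cargo adaptors rose, while 22.1% of all genes did. These proteins bind ubiquitin on cargo with one end and ATG8 proteins with the other. OPTN, optineurin, a receptor in the removal of damaged mitochondria and of bacteria (chromosome 10, 13099449 to 13138308, plus strand, hg38), was at 109, 138 and 141 TPM after knockdown and at 38.1, 35.7 and 33.8 TPM in the controls. It was the largest change of all members, 3.61-fold in mean TPM (129 ± 17.4 against 35.85 ± 2.145 TPM, SD, n = 3 each; log2 fold change 1.81, SE 0.105, adjusted p 2.6e-05). In the controls OPTN ranked 20th of the 43 genes by mean level, and with the MEN1 shRNA it ranked 4th.

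SQSTM1, which encodes p62, the founding receptor of selective autophagy, was at 176, 263 and 262 TPM against 118, 123 and 118 TPM. The groups did not overlap, and knockdown replicate 1 lay below replicates 2 and 3 (log2 fold change 0.93, SE 0.148, adjusted p 0.00133). MGAT4B, which overlaps SQSTM1 on the opposite strand, also rose (78.2 to 129 TPM over all libraries), and whether the quantification used strand is not given in the sources used here. NBR1, a p62-related receptor, changed least of the adaptors, to 83.9 ± 2.26 TPM from a control level of 66.0 ± 3.51 TPM (log2 fold change 0.34, adjusted p 0.00248).

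Mitophagy receptors did not move as one. BNIP3L, also called NIX, the outer-membrane receptor through which reticulocytes lose their mitochondria (chromosome 8, 26383054 to 26505636, plus strand), was the most abundant member in both groups. Its level was 576, 727 and 582 TPM after knockdown and 436, 394 and 442 TPM in the controls, a rise of 1.48-fold (log2 fold change 0.56, SE 0.0994, adjusted p 0.00228). BNIP3, its close relative, known for induction by hypoxia, moved the other way, with 70.7, 48.7 and 60.1 TPM against 91.1, 99.7 and 74.7 TPM. The groups came closest between MEN1 shRNA replicate 1 and control replicate 3 (log2 fold change -0.56, SE 0.151, adjusted p 0.0155). Without control replicate 2 the fall of BNIP3 missed the threshold (adjusted p 0.0544), and it did so too with no filter on low genes (adjusted p 0.0682). The tables hold 44 rows named as copies of BNIP3, with a summed level of 1.88 to 4.37 TPM, so its reads could be split among them.

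FUNDC1, another hypoxia-linked receptor of the outer membrane, measured 17.8, 19.0 and 21.0 TPM after knockdown. The controls were split, at 8.81, 8.21 and 17.5 TPM, so that control replicate 3 nearly reached the MEN1 shRNA libraries (log2 fold change 0.77, SE 0.250, adjusted p 0.0332). Leaving out any 1 library other than control replicate 3 raised its adjusted p above 0.05 (0.0595 to 0.104), as did no filter on low genes (0.124). PINK1, the kinase that marks depolarised mitochondria, rose to 18.0 ± 1.39 TPM from a control level of 14.1 ± 1.197 TPM (log2 fold change 0.33, adjusted p 0.0215). That call was lost without MEN1 shRNA replicate 2 or 3 or control replicate 2 or 3 (adjusted p 0.0501 to 0.0735), and with the replicate number as a block (0.0570).

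Within the summed TPM of BNIP3L, BNIP3 and FUNDC1, the composition moved toward BNIP3L. BNIP3L held 86.7%, 91.5% and 87.8% of the sum after knockdown and 81.4%, 78.5% and 82.8% in the controls, while BNIP3 went from 16.9% ± 2.94 to 8.61% ± 2.29. With the deposited gene coverage per base in place of TPM the levels differed: BNIP3L held 58.4% ± 3.05 after knockdown and 44.3% ± 0.970 in the controls, and BNIP3 26.1% ± 4.57 and 43.9% ± 5.29. The directions were as with TPM, but in the controls BNIP3L and BNIP3 were then close. Isoform-summed coverage, which is computed from FPKM and so follows TPM, kept them apart, at 1405 to 2721 for BNIP3L and 155 to 487 for BNIP3. These shares have no test, since the sum runs over chosen genes. The sum itself was 663 to 795 TPM after knockdown and 502 to 536 TPM in the controls.

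The ATG8 family are the small ubiquitin-like proteins that are attached to the autophagosome membrane. All 5 chosen genes of the family had a positive log2 fold change, and 4 passed the threshold, while 22.1% of all genes rose. Outside the chosen genes, MAP1LC3B2 did not pass (log2 fold change -0.02, adjusted p 0.958) and MAP1LC3C was listed at 0 in all libraries. GABARAP was the most abundant, at 179, 285 and 272 TPM after knockdown and 132, 130.3 and 129 TPM in the controls. The controls lay close together, whereas MEN1 shRNA replicate 1 lay well below replicates 2 and 3 (log2 fold change 0.88, SE 0.162, adjusted p 0.00274). GABARAPL1, a relative with a low level in these cells, was at 11.2, 17.5 and 13.8 TPM against 8.82, 7.61 and 7.13 TPM (log2 fold change 0.76, adjusted p 0.00499).

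MAP1LC3B, the LC3 form most used as an autophagosome marker, rose to 93.9 ± 11.1 TPM from a control level of 68.0 ± 1.32 TPM (log2 fold change 0.45, adjusted p 0.00376). Its near-identical copy MAP1LC3B2 was listed at 1.90 TPM at most, and how reads were shared between these rows was not tested. GABARAPL2 rose less, to 75.1 ± 2.21 TPM from a control level of 65.0 ± 2.82 TPM (log2 fold change 0.21, adjusted p 0.0210), and lost the call without MEN1 shRNA replicate 2 or 3 or control replicate 1 or 3 (adjusted p 0.0520 to 0.0727) and with the replicate block (0.0555). MAP1LC3A, at 7.79 to 10.1 TPM over the 6 libraries, did not pass (log2 fold change 0.16, 95% interval -0.07 to 0.40, adjusted p 0.214), except with quantile normalization (adjusted p 0.0489).

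TPM of the chosen family genes summed to 353, 484 and 476.5 in the MEN1 shRNA libraries and to 282, 283 and 273 in the controls, 1.57 times higher on average. GABARAP made up 55.6% ± 4.35 of the sum with the MEN1 shRNA and 46.7% ± 0.566 in the controls, and GABARAPL2 went from 23.3% ± 0.742 to 17.5% ± 2.87. The groups did not overlap in either share. The GABARAPL1 share overlapped between groups (3.23% ± 0.358 against 2.81% ± 0.279).

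**Figure D2:**
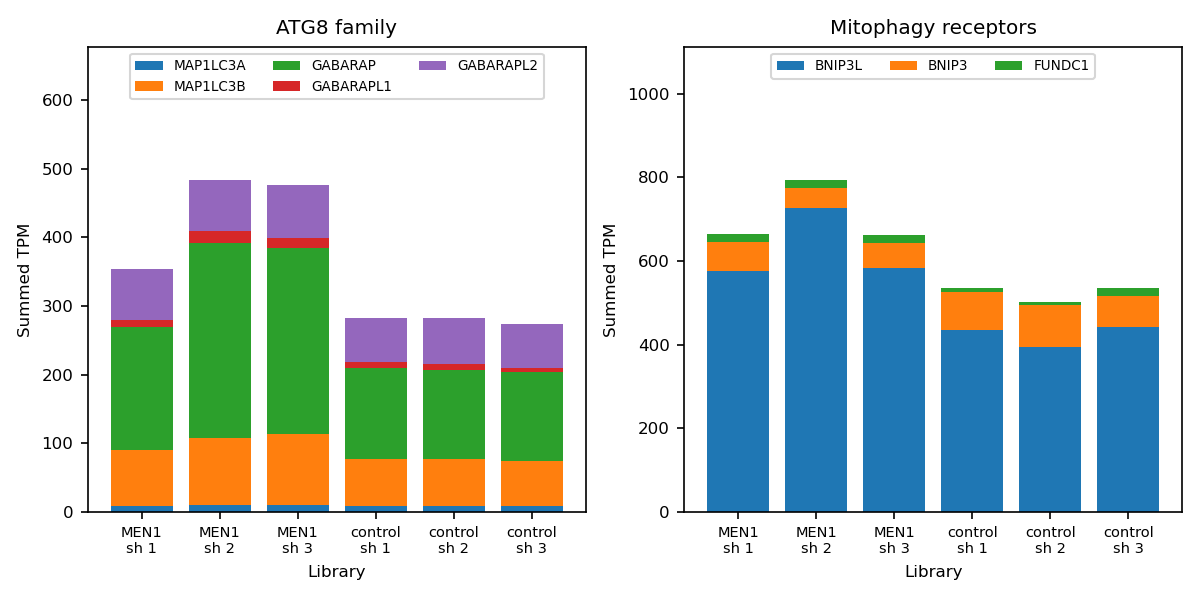
Stacked TPM per library (bars start at 0) for the 5 chosen ATG8 genes and for 3 mitophagy receptors, with 3 MEN1 shRNA libraries on the left of each panel and 3 controls on the right. GABARAP accounts for most of the added height in the ATG8 panel, and BNIP3L grows while BNIP3 shrinks in the receptor panel.

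The enzymes that attach and release ATG8 proteins mostly did not pass the threshold: 2 of 8 rose (25.0%, near the 22.1% of all genes). ATG4A, a cysteine protease that trims ATG8 proteins and is best known for acting on the GABARAP branch (chromosome X, 108091668 to 108154671, plus strand), was at 70.3, 90.2 and 87.9 TPM after knockdown and 28.7, 29.0 and 29.9 TPM in the controls. That is 2.84-fold in mean TPM (log2 fold change 1.47, SE 0.0993, adjusted p 3.9e-05), the second largest change among the members. Its relatives ATG4B (41.9, 43.1 and 50.2 against 47.3, 55.6 and 51.0 TPM) and ATG4D (33.0, 38.1 and 35.3 against 33.6, 28.6 and 30.8 TPM) overlapped between groups and did not pass (adjusted p 0.135 and 0.104). ATG4B passed, downward, without MEN1 shRNA replicate 3 (adjusted p 0.0476). In the controls ATG4B exceeded ATG4A, and with the MEN1 shRNA ATG4A exceeded ATG4B, in each of the 3 libraries. ATG4D passed the threshold, upward, under 3 other scalings and with library weights (adjusted p 0.0356 to 0.0463), and KRI1, which overlaps it on the opposite strand, fell.

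ATG12, the ubiquitin-like partner of ATG5, rose to 27.9 ± 1.15 TPM from a control level of 22.45 ± 2.83 TPM (log2 fold change 0.31, adjusted p 0.0311). It lost the call without any 1 library other than control replicate 2 (adjusted p 0.0523 to 0.101) and with the replicate block (0.0617), and AP3S1, which overlaps it on the opposite strand, fell. ATG3, the E2-like enzyme of ATG8 conjugation, was abundant and overlapped between groups, at 131, 115 and 120.3 TPM against 112.4, 109.8 and 130.5 TPM (log2 fold change 0.05, 95% interval -0.14 to 0.25). ATG5 was at 34.7, 35.8 and 33.8 TPM against 35.2, 36.4 and 41.5 TPM (95% interval -0.29 to 0.07). ATG7, the E1-like enzyme at the head of both conjugation routes, and ATG16L1, which places the ATG12-ATG5 conjugate on the membrane, had 11.9 to 19.2 TPM over all libraries and intervals of -0.21 to 0.39 and -0.16 to 0.27. VGLL4, which overlaps ATG7 on the opposite strand, fell (3.57 to 20.05 TPM over all libraries).

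Initiation genes moved in both directions. ULK1, the kinase that starts autophagosome formation and acts in mitochondrial clearance from reticulocytes (chromosome 12, 131894622 to 131923150, plus strand), was at 23.1, 29.9 and 30.7 TPM after knockdown and 12.6, 13.8 and 11.2 TPM in the controls (log2 fold change 1.09, SE 0.128, adjusted p 0.000321). Its close relative ULK2 was at 4.78, 6.08 and 8.61 TPM against 2.94, 2.82 and 3.77 TPM (log2 fold change 0.82, adjusted p 0.0101). ULK3, a more distant kinase of the family, fell, with 23.6, 22.8 and 21.2 TPM against 33.5, 33.5 and 38.4 TPM (log2 fold change -0.62, SE 0.0831, adjusted p 0.000588). In mean TPM the controls held the order ULK3, ULK1, ULK2, and with the MEN1 shRNA ULK1 came first. In MEN1 shRNA replicate 1, however, ULK3 (23.6 TPM) still lay above ULK1 (23.1 TPM).

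ATG13, the adaptor that binds ULK1 to its scaffold, fell to 36.7, 33.9 and 27.3 TPM from 58.5, 60.7 and 57.7 TPM (log2 fold change -0.85, SE 0.108, adjusted p 0.000453). RB1CC1, that scaffold, also called FIP200, rose to 60.0 ± 6.27 TPM from a control level of 47.7 ± 2.065 TPM (log2 fold change 0.32, adjusted p 0.0163). Its call was lost without MEN1 shRNA replicate 2 or 3 or control replicate 1 (adjusted p 0.0538 to 0.0543), and with no filter on low genes. ATG101, the stabiliser of ATG13, was at 28.0, 25.1 and 24.9 TPM against 22.9, 25.2 and 25.2 TPM and did not pass (95% interval -0.10 to 0.27), except with quantile normalization (adjusted p 0.0439). Thus the kinases ULK1 and ULK2 and the adaptor ATG13, parts of one complex, changed in opposite directions.

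The lipid kinase complex showed the same kind of split. ATG14, the subunit that directs the complex to sites of autophagosome formation (chromosome 14, 55366391 to 55411830, minus strand), was at 35.4, 38.6 and 39.4 TPM after knockdown and 15.6, 18.4 and 18.8 TPM in the controls (log2 fold change 1.06, SE 0.0918, adjusted p 8.9e-05). PIK3C3, the catalytic subunit, fell to 18.9 ± 0.673 TPM from a control level of 25.3 ± 0.859 TPM (log2 fold change -0.41, adjusted p 0.00205). BECN1, beclin 1, was at 61.2, 65.6 and 66.8 TPM against 69.3, 68.6 and 72.8 TPM, lower in every MEN1 shRNA library but not past the threshold (log2 fold change -0.12, 95% interval -0.26 to 0.02, adjusted p 0.137). PSME3 overlaps BECN1 on the opposite strand and fell, and HMGN1P1 (3.36 to 9.76 TPM) overlaps ATG14 on the same strand. FBXO34 (40.8 to 50.5 TPM), which overlaps ATG14 on the opposite strand, did not pass.

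Downstream of that lipid signal, ATG9A and ATG2A rose. ATG9A, the scramblase carried by the vesicles that seed the membrane, was at 93.0, 83.3 and 104.1 TPM against 47.8, 50.4 and 45.7 TPM (log2 fold change 0.94, SE 0.0895, adjusted p 0.000129). ATG2A, which moves lipids into the growing membrane, was at 28.3, 31.3 and 29.9 TPM against 17.0, 16.2 and 18.3 TPM (log2 fold change 0.77, SE 0.0788, adjusted p 0.000177). Its paralog ATG2B, at 10.95 to 12.55 TPM over all libraries, did not pass (log2 fold change -0.06, 95% interval -0.26 to 0.14), and its sign changed with the scaling.

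WIPI1 and WIPI2, which read the lipid mark, did not pass. WIPI1 was at 22.4, 24.2 and 26.7 TPM against 24.9, 23.9 and 24.4 TPM, with a sign that depended on the scaling. WIPI2 was at 71.4, 57.7 and 67.5 TPM against 74.1, 86.4 and 74.7 TPM (log2 fold change -0.26, adjusted p 0.0595). It passed once MEN1 shRNA replicate 1 was left out (-0.32, adjusted p 0.0358), as it did with library weights (0.0270).

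**Figure D3:**
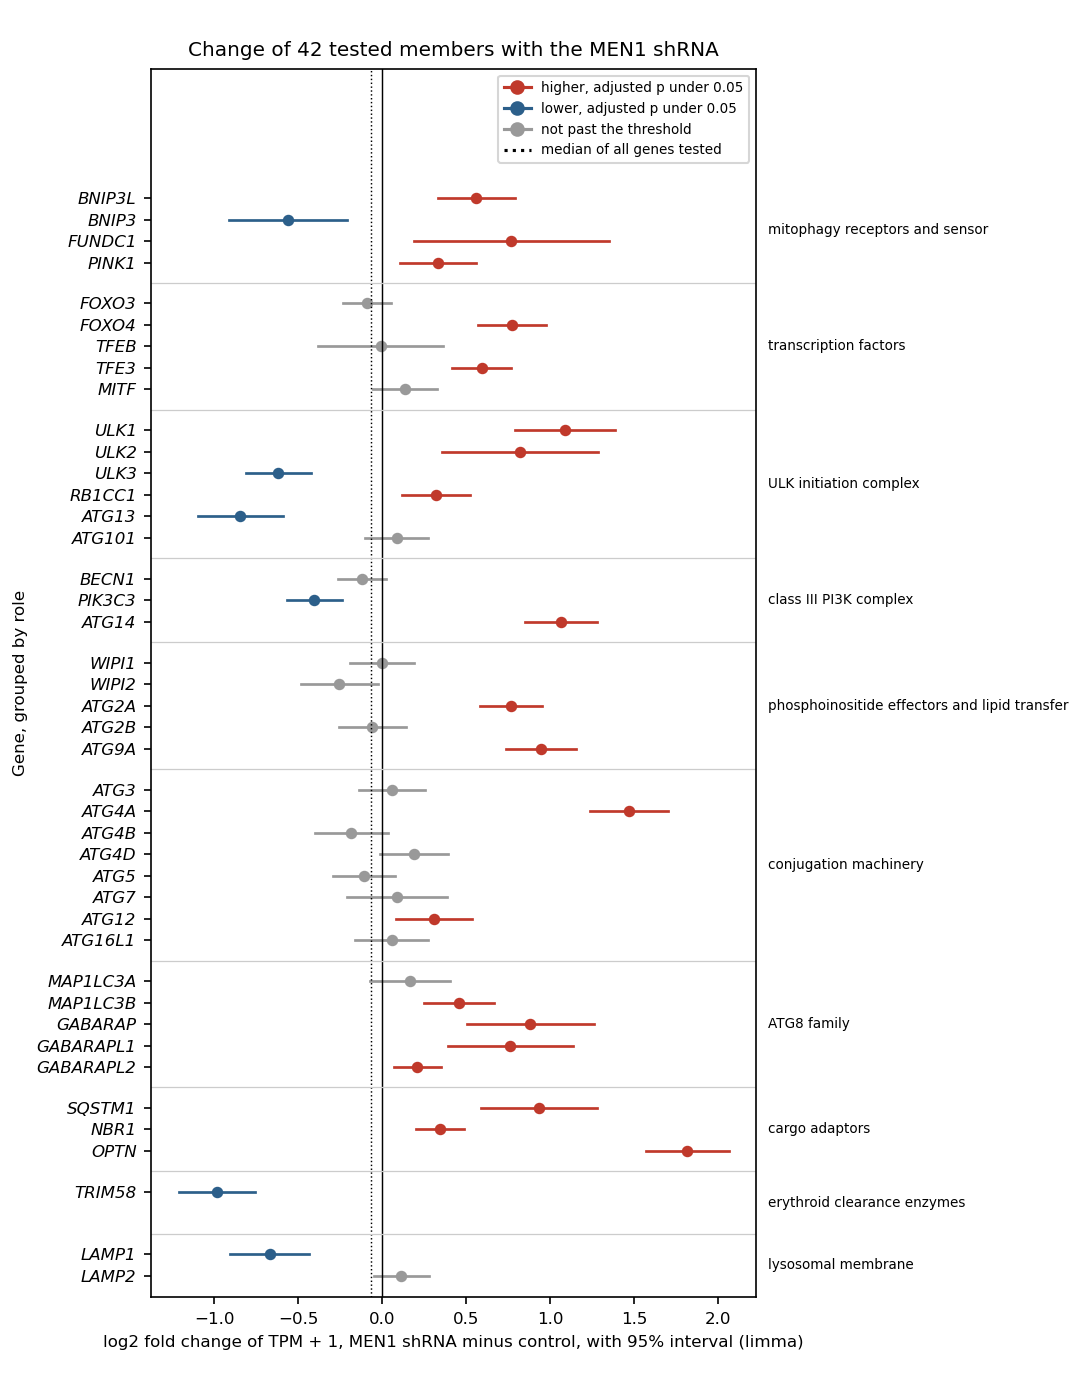
Log2 fold change of TPM + 1 (MEN1 shRNA minus control) for the 42 tested genes with 95% intervals from limma, ordered by role; colours mark genes past an adjusted p of 0.05, and the dotted line is the median of all genes tested (-0.07). Most of the 20 rises lie among cargo adaptors, ATG8 genes, mitophagy receptors and initiation genes, and the 6 falls are BNIP3, ULK3, ATG13, PIK3C3, TRIM58 and LAMP1.

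Transcription factors of the programme were compared at the RNA level. FOXO4, a forkhead factor, was at 33.9, 38.7 and 39.4 TPM against 22.6, 21.75 and 19.85 TPM (log2 fold change 0.77, SE 0.0871, adjusted p 0.000266). TFE3, which drives lysosome and autophagy genes together with TFEB and MITF, was at 21.4, 23.9 and 22.8 TPM against 15.2, 14.6 and 14.5 TPM (log2 fold change 0.59, SE 0.07605, adjusted p 0.000481). FOXO3, the forkhead factor best known from erythroid maturation, was at 44.96, 45.06 and 47.45 TPM against 50.5, 47.1 and 49.0 TPM. Its groups overlapped, and the interval of the log2 fold change was -0.23 to 0.05 (adjusted p 0.254).

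TFEB was the lowest tested member, at 1.013 to 1.526 TPM over the 6 libraries, with an isoform-summed coverage of 3.60 to 7.07 reads per base, and its interval of -0.38 to 0.36 leaves its direction undetermined at this depth. MITF, at 9.72 to 11.3 TPM, lay higher in every MEN1 shRNA library without passing (log2 fold change 0.13, adjusted p 0.212). MITF passed with quantile normalization (log2 fold change 0.26, adjusted p 0.0294). In both groups TFE3 had the highest level of the 3 factors and TFEB the lowest.

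The promoters of the members were searched for short motifs, as a description. RefSeq promoter sequences (GRCh38.p14) were matched for 36 of the 43 genes, and the 250 bases before the start were read on both strands. CACGTG, the palindromic E-box that the TFE3, TFEB and MITF family can bind, was present in 5 of the 36 (ATG3, ATG14, BNIP3, LAMP1 and ULK3) and in 6.49% of 27305 promoters of that length. AGATAA, which GATA factors can bind, was in 2 (ATG13 and NBR1; 9.37% of all promoters). CCACACCC, read by KLF factors, was in 1 (TRIM58; 2.90%). GTAAACA, read by forkhead factors, was in 0 (2.98%). TCACGTGA, a longer form that contains CACGTG, was in 1 (LAMP1; 0.89% of all promoters). The other motifs do not contain one another. The windows below hold the matches other than that of NBR1, in capitals, 5′ to 3′ on the gene's strand. They are shown because the 5 genes with an E-box did not share a direction: ATG14 rose, BNIP3, LAMP1 and ULK3 fell, and ATG3 did not pass. The LAMP1 window has 5 E-boxes, the others 1. They lie at chr13:113297037-113297226 (LAMP1, plus strand), chr14:55411831-55411930 (ATG14, minus), chr10:131982005-131982104 (BNIP3, minus), chr15:74843311-74843340 (ULK3, minus) and chr3:112561963-112561992 (ATG3, minus), the last pair inside the span of the deposited gene rows. The GATA match of ATG13 (chr11:46617332-46617431, plus) and the KLF motif of TRIM58 (chr1:247857052-247857151, plus) are on the other strand, and both genes fell. The GATA match of NBR1 (chr17:43170177-43170276, plus) is on the other strand too. NBR1 rose, and its window is not shown.
LAMP1: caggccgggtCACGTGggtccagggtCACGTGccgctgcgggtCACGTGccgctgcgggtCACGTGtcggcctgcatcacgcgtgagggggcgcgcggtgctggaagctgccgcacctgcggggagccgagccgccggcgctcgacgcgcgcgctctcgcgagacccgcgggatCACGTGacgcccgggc
ATG14: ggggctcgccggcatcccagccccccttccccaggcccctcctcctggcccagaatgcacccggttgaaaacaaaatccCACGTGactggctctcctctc
BNIP3: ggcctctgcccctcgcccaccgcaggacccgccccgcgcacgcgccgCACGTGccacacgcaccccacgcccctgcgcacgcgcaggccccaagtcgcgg
ULK3: cctccgtatcccCACGTGggccctgcagga
ATG3: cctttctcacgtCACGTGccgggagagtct
ATG13: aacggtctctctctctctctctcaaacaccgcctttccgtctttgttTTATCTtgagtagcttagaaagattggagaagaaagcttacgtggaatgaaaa
TRIM58: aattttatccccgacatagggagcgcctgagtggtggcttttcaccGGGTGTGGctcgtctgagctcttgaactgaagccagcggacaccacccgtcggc
A match shows letters in a window and says nothing of binding.

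Both genes named for erythroid clearance were low or lower. TRIM58, a ubiquitin ligase of late erythroblasts that targets dynein and aids enucleation (chromosome 1, 247857187 to 247880138, plus strand), was at 26.6, 20.8 and 23.2 TPM after knockdown and 45.9, 50.0 and 46.3 TPM in the controls. Its mean TPM was 0.497 times the control mean, the largest fall of any member (log2 fold change -0.99, SE 0.0974, adjusted p 0.000149). In the same libraries 8 of 10 erythroid markers rose, as did 22.1% of all genes. ALOX15, the lipoxygenase that attacks organelle membranes in reticulocytes, was at 0.0323, 0.104 and 0.0432 TPM after knockdown, and it is listed at 0 in all 3 controls. These levels are below the filter, so no fold is given.

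The lysosomal membrane glycoproteins parted. LAMP1 was at 89.1, 76.6 and 92.3 TPM against 122, 151 and 140.2 TPM and fell (log2 fold change -0.67, SE 0.1002, adjusted p 0.000968). LAMP2, whose isoform A is the receptor of chaperone-mediated autophagy, was at 52.9, 54.5 and 55.1 TPM against 45.98, 52.1 and 52.3 TPM. It lay higher in every MEN1 shRNA library without passing (log2 fold change 0.11, 95% interval -0.05 to 0.28, adjusted p 0.219), and it passed with median-of-ratios scaling (adjusted p 0.0291) and quantile normalization (0.0287). LAMP1 ranked 2nd of the 43 genes in the controls and 8th with the MEN1 shRNA.

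The size of the changes differed between the MEN1 shRNA libraries. Replicate 1 was the nearest to the control mean in 23 of the 26 changed members (88.5%), and in 65.2% of the 7657 changed genes overall. Without that library 25 members passed, 18 higher and 7 lower. Over all genes, 7542 passed without MEN1 shRNA replicate 1, against 7657 with all libraries. Rises were 41.5% of those calls, against 41.2% with all libraries.

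Other genes of the pathway, taken from lists by their known function, were read from the same fit. Of 17 further core autophagy genes tested (18 listed), 2 rose and 3 fell, a smaller share than among all genes (29.4% against 53.6%). EPG5, a tether between autophagosome and lysosome, rose to 31.2 ± 1.812 from 22.7 ± 2.22 TPM (log2 fold change 0.45, adjusted p 0.00429), and WDR45, a WIPI-family protein, to 60.1 ± 6.40 from 47.9 ± 1.24 TPM (0.32). EI24, an endoplasmic reticulum protein of basal autophagy, fell to 50.1 ± 3.77 from 113 ± 1.66 TPM (log2 fold change -1.17, adjusted p 2.6e-05). ATG9B, the paralog of ATG9A, fell to 6.61 ± 1.12 from 15.5 ± 2.50 TPM (-1.11), the reverse of ATG9A. PIK3R4, the regulatory subunit bound to PIK3C3, fell with it (-0.47).

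Of 14 further selective receptors tested (16 listed), 6 rose (42.9%, against 22.1% of all genes) and 4 fell (28.6%, near the 31.5% of all genes). NCOA4, the receptor that delivers ferritin to lysosomes and so releases iron, rose to 396 ± 12.8 from 219 ± 7.78 TPM (log2 fold change 0.85, adjusted p 3.3e-05). FKBP8, an outer-membrane mitophagy receptor, rose to 883 ± 68.9 from 562 ± 25.0 TPM (0.65), a level above that of BNIP3L. TAX1BP1, a ubiquitin receptor, rose too (0.52). PHB2, an inner-membrane protein exposed in mitophagy, fell to 186 ± 40.5 from 474 ± 55.9 TPM (log2 fold change -1.36, adjusted p 0.000259). FBXO7, an F-box protein tied to the PINK1 pathway, fell to 181 ± 21.7 from 412.5 ± 27.3 TPM (-1.18), and TEX264, a receptor for the endoplasmic reticulum, also fell (-0.85).

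Of 31 nutrient sensing genes tested, 13 rose (41.9%, against 22.1% of all genes) and 9 fell (29.0%, near the 31.5% of all genes). SESN2, a sestrin that restrains mTORC1, rose to 17.2 ± 3.11 from 4.40 ± 0.211 TPM (log2 fold change 1.74). SESN3 (1.10) and TBC1D7, a subunit of the TSC complex that also restrains mTORC1 (134 ± 20.3 from 53.1 ± 0.797 TPM, 1.31), rose with it. On the falling side were MLST8, a subunit of the mTOR complexes (-0.77), LAMTOR4, a part of the lysosomal anchor of mTORC1 (-0.42), and DEPTOR, an inhibitor of mTOR (-1.18).

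In the fusion list, 4 of 15 rose (26.7%, near the 22.1% of all genes) and 2 fell (13.3%, against 31.5%), among them VPS16 (0.47) and PLEKHM1 (0.48) upward and VPS41 (-0.50) and VPS33A (-0.37) downward. VPS16, VPS33A and VPS41 are subunits of one tethering complex, HOPS, and so changed in opposite directions. The count was 10 under 3 other scalings.

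Lysosomal hydrolases, membrane proteins and proton pump subunits had the highest share of rises among the 6 further lists, 29 of 43 tested (67.4%, against 22.1% of all genes), with 7 lower and a median log2 fold change of 0.36. GRN, progranulin, rose to 238 ± 21.5 from 94.0 ± 2.47 TPM (1.33), CD63, a tetraspanin of late endosomes, to 707 ± 47.6 from 325 ± 16.1 TPM (1.12), and ATP6V0A1, a proton pump subunit, to 79.05 ± 4.68 from 33.85 ± 2.54 TPM (1.2005). CTSH, cathepsin H, fell to 1.347 ± 0.336 from 11.0 ± 1.11 TPM (-2.36). SCARB2 (-0.48) and LIPA (-0.59) also fell; these were named by lowest adjusted p, not by size. LAMP1 therefore moved against most genes of the organelle it marks.

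Mitochondrial outer membrane and fission-fusion genes had the opposite balance, with 13 of 18 lower (72.2%, against 31.5% of all genes) and 2 higher. TOMM40, the import channel, fell to 116 ± 5.67 from 244 ± 17.2 TPM (-1.06), DNM1L, the fission GTPase DRP1, to 41.1 ± 4.91 from 77.4 ± 1.15 TPM (-0.90), and TOMM22 to 65.2 ± 6.19 from 111 ± 0.560 TPM (-0.76). FIS1, a fission factor (0.68), and MFN1, a fusion GTPase (0.48), rose. The call for FIS1 was lost with no filter on low genes (adjusted p 0.0669).

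**Figure D4:**
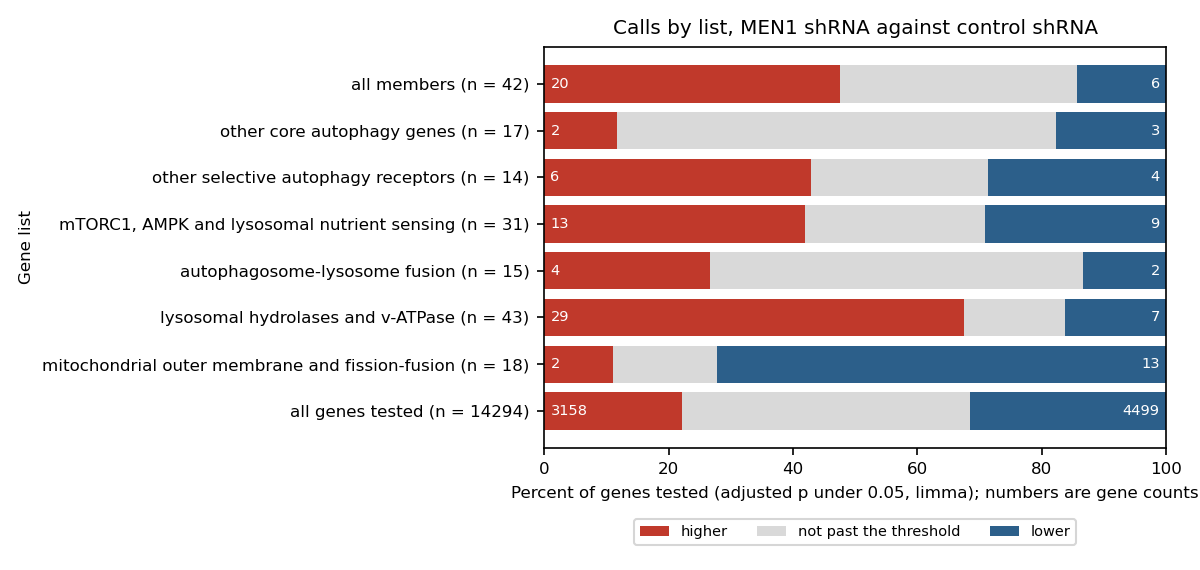
Percent of tested genes higher (left), not past the threshold (middle) and lower (right) with the MEN1 shRNA at a limma adjusted p of 0.05, for the 43 chosen genes (42 tested), 6 further lists and all 14294 genes; numbers in the bars are gene counts. The lysosomal list has 29 of 43 higher, the mitochondrial list 13 of 18 lower, and the chosen genes 20 of 42 higher.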

How the data were processed

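Poly(A) RNA of 6 HUDEP-2 libraries was made into directional libraries, per the labels' protocols, and grouped by the sample titles. The submitters' processing notes name FastQC, Trimmomatic, STAR 2.7.1a, Picard 2.20.4, StringTie 2.0.4 and hg38; which annotation was used, and whether strand was, is not given in these sources. Each deposited table gives TPM, FPKM and mean coverage per base for each gene, as the authors computed them; TPM sums to a fixed total per library, which ties every gene's value to that of abundant transcripts such as globin. In control replicate 2, negative residues near 0 in 2 gene rows were set to 0. The tables give no counts, so no count model was fitted. Genes with TPM of 1 or more in at least 3 libraries were transformed to log2(TPM + 1) and fitted with limma 3.58.1 in R 4.3.3 (eBayes with trend, 2-sided, Benjamini-Hochberg over all genes tested, threshold 0.05), a step tested on simulated data. Isoform-summed coverage is FPKM times the inferred aligned bases. The members, lists, tests and naming rule were chosen with earlier results of these data known: all members may be named, and per further list at most 3 genes per direction with the lowest adjusted p; 1 gene that this rule names is not reported here. Promoter motifs were chosen after the fit was seen. Tables and plots were made in Python 3.11.15 (SciPy 1.17.1, matplotlib 3.10.9, NumPy 2.4.6, pandas 2.3.3). Alternatives were pseudocounts, filters, FPKM, scalings, a replicate block, eBayes without trend, library weights, a stricter threshold, coverage and leaving out each library.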

Additional observations from a re-analysis of the deposited data

How the results depend on the processing

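Of 217 comparisons of the counts, the MEN1 level and the family shares with an alternative, 210 stayed within bounds (1.5 times for counts, 1 SD for shares, sign and call for MEN1). The fusion list went from 6 to 10 genes under median-of-ratios scaling, under TPM rescaled without globin and mitochondrial genes and under quantile normalization, and the cause was not tested. With gene coverage in place of TPM, the share difference (MEN1 shRNA minus control) became -1.15 points for MAP1LC3A, 14.1 for BNIP3L, -17.8 for BNIP3 and 3.74 for FUNDC1, from -0.775, 7.78, -8.34 and 0.559; the cause was not tested. Members past the threshold numbered 19 at an adjusted p of 0.01, 21 with no filter, 31 with quantile normalization and 21 to 25 with 1 library left out. Over all genes, 7657 passed in the main fit and 6577 to 7542 with 1 library left out. Under the other alternatives 5527 (at 0.01) to 8033 genes passed. The fit with no filter adjusted over 35241 genes in place of 14294, and the part of this in its member count was not tested. MEN1 was at -2.46 to -2.38 with 1 library left out and at -2.57 to -1.94 under the other alternatives. Of 712 comparisons of single members, 651 kept direction and side, a set that leaves out the threshold of 0.01. In that set 20 of the 26 calls held wherever the gene was tested. The other 6 were BNIP3, FUNDC1, PINK1, RB1CC1, ATG12 and GABARAPL2, all of which except GABARAPL2 were lost with no filter on low genes. At the threshold of 0.01 these 6 and ULK2 (adjusted p 0.0101) did not pass. No called member changed sign. Signs turned for uncalled genes near 0: TFEB became positive with FPKM (0.0067), median-of-ratios scaling (0.040) and TPM rescaled without globin and mitochondrial genes (0.030) and ran from -0.0803 to 0.0833 with 1 library left out; WIPI1 with FPKM (0.028), median-of-ratios (0.083), rescaled TPM (0.063), quantile normalization (0.12) and library weights (0.018) and from -0.0644 to 0.0565 with 1 library left out; ATG2B with median-of-ratios (0.020), rescaled TPM (0.000167) and quantile normalization (0.067); and ATG7 ran from -0.0523 (without control replicate 2) to 0.185 with 1 library left out.

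Libraries with the same replicate number did not deviate together (correlations of deviations 0.0171, -0.0265 and -0.0124 for numbers 1, 2 and 3), and 2 of 6 libraries correlated best with their own number. Whether a number marks a shared batch is not given in the labels and was not settled by these values. Under the replicate block 7012 genes and 23 members passed; PINK1, ATG12 and GABARAPL2 were lost, which is not a weaker effect. TFEB and ALOX15 had the lowest isoform-summed coverage of the members, and the part of depth in their values was not tested.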
